A study of Homo sapiens with 6 samples.

Results

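MGMT, MPG, APEX1, XRCC1, MSH3, MSH6 and PMS2 encode proteins that repair alkylated DNA or respond to the lesions that alkylation leaves. They were taken by symbol, and all 7 were found among the 58174 genes of the expression table. Per the labels, both groups were AGS, an established line of human gastric adenocarcinoma cells, and had received either a negative control siRNA, si-NC, or an siRNA against FTO, an RNA demethylase of m6A, si-FTO. RNA was sequenced from 3 libraries of each of the 2 groups, and expression was given as TPM, the share of all transcripts that a gene accounts for, a level corrected for gene length that can be compared between genes. In the genotype field, the sample labels call si-NC wild type and call si-FTO FTO-/-, but the titles and the methods name siRNA, so the groups are called here by their titles. Each gene has 1 value per group, the authors' mean TPM. The spread between libraries and the sequencing depth are therefore unknown, no difference was tested, and all comparisons below are descriptions of 2 means.

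Alkylating agents add methyl or larger groups to the bases of DNA. MGMT removes such a group from the oxygen of guanine in a single step and is used up in doing so. MPG, also called AAG or ANPG, is a DNA glycosylase that cuts out bases alkylated at ring nitrogens and starts base excision repair. APEX1 then nicks the strand at the site without a base, and XRCC1 is the scaffold on which the repair polymerase, ligase and end-processing enzymes assemble. Where O6-methylguanine persists, it pairs with thymine and is met by mismatch repair. MSH6 and MSH3 are the alternative mismatch-binding subunits for small and for larger mispairs, and PMS2 carries the endonuclease activity of the main downstream complex. In gastric and other tumors, MGMT is often silenced by methylation of CpG sites around its start. DNA methylation was not measured here.

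The label check came first. FTO averaged 33.1 TPM under si-NC and 7.27 under si-FTO. Its log2 ratio, here always si-FTO over si-NC after adding 1 to both means, was -2.05, and -1.85 after median-ratio scaling. That scaling sets to 0 the median ratio of the genes above 0 in both groups. It was given beside the unscaled values because the median log2 ratio of the deposited means lay below 0, at -0.20 over 20493 genes compared, and the scaling shift was -0.21. To be compared, a gene needed 0.5 TPM or more in either mean.

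The labelled cell type was then set against its markers, which went against the label in part and differed widely between the groups. Of 14 epithelial markers, 11 were compared, 7 were higher under si-FTO by a log2 ratio of at least 1 and 1 was lower by as much, and these counts were the same after median-ratio scaling. Their summed TPM was 109 under si-NC and 5139.6 under si-FTO. The keratin KRT8 stood at 10.8 TPM under si-NC and 3139 under si-FTO, and its partner KRT18, the most abundant of the list under si-NC, at 52.1 and 1851. The epithelial transcription factor ELF3 stood at 0.115 and 93.3 TPM, and the splicing factor ESRP2 at 2.44 and 25.99. SPINT2, a membrane protease inhibitor, went the other way, with 38.2 TPM under si-NC and 7.99 under si-FTO. EPCAM, a defining surface marker of epithelial cells, was low in both groups, with 1.22 and 0.113 TPM. KRT19 was listed at 0 under si-NC and had 0.130 TPM under si-FTO.

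Of 7 gastric markers, 1 was compared, and the sum of the list was 0.653 TPM under si-NC and 1.23 under si-FTO. TFF1, GKN1 and GKN2 were listed at 0 in both groups, and the most abundant, CLDN18, had 0.627 and 0.759 TPM. The gastric list thus lay near 0 in both groups. Of 11 mesenchymal markers, 9 were compared, with 2 higher and 3 lower by the same threshold, and their sum was 506 TPM under si-NC and 821 under si-FTO. The intermediate filament VIM was the most abundant, with 439.9 and 752 TPM. PDGFRB had 0.370 and 5.34 TPM and COL1A1 10.3 and 36.4, whereas FN1 had 27.7 and 8.74, COL3A1 2.18 and 0.361 and ZEB2 14.4 and 5.96. After median-ratio scaling, 2 of the mesenchymal markers were lower past the threshold. Of 7 blood and endothelial markers, 6 were found and 3 compared. Their sum was 3.30 TPM under si-NC and 42.0 under si-FTO. Nearly all of the latter came from the endothelial cadherin CDH5, at 0.00827 and 40.9 TPM, while the leukocyte marker PTPRC was listed at 0 in both groups. With EPCAM and KRT19 near 0 in cells labelled as a gastric epithelial line and KRT8 so unequal, whether the libraries of both groups came from the same cell line was not tested and cannot be told from the means. Each difference between si-NC and si-FTO given here, that of MGMT included, is therefore a difference between libraries so labelled. These marker differences lie between the same 2 means as each result below, and their part in those results was not tested.

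**Figure D1:**
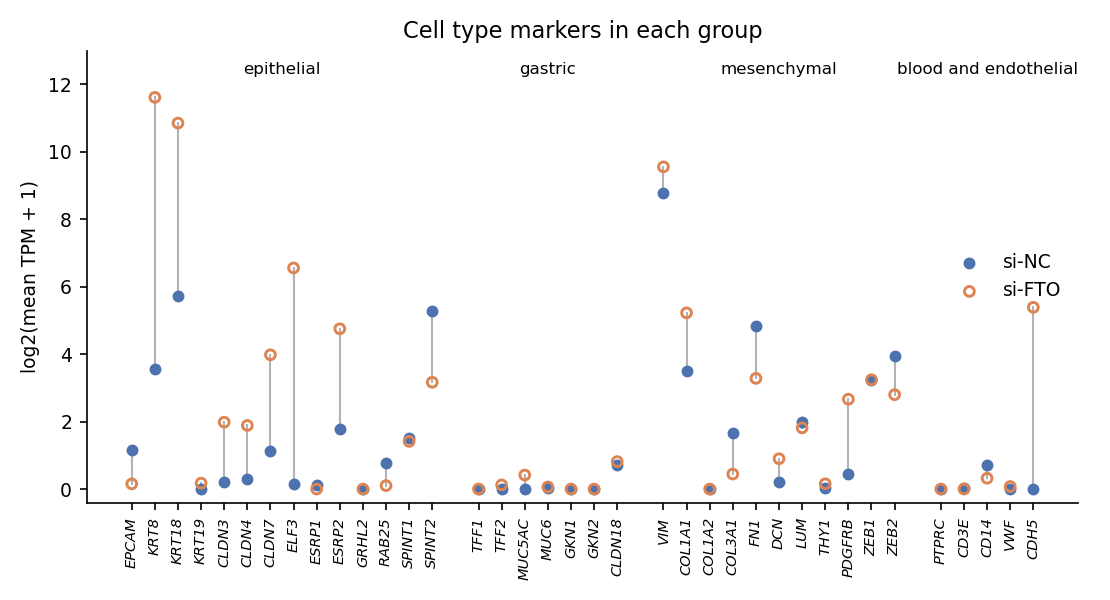
Level of cell type markers as log2(mean TPM + 1) under si-NC (filled blue) and si-FTO (open orange), with a line joining the 2 means of a gene. KRT8 and KRT18 stand far higher under si-FTO, gastric markers lie near 0 in both groups, and VIM is high in both.

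Among the 7 repair genes, MGMT stood apart. MGMT (ENSG00000170430) was listed at 0 under si-NC and averaged 25.3 TPM under si-FTO. No fold is given against a group listed at 0, and in bulk RNA more transcripts per cell and more cells with the transcript cannot be told apart. In si-FTO its level was above that of 71.7% of the genes compared, and it exceeded that of MSH3. It passed the minimum of 0.5 TPM through si-FTO alone. Genes listed at 0 under si-NC with at least 10 TPM under si-FTO numbered 65, which is 0.7004% of the 9280 genes with at least 10 TPM under si-FTO. Of the 65, 30 had at least the level of MGMT, MGMT itself included. In the opposite direction, 177 genes with at least 10 TPM under si-NC were listed at 0 under si-FTO, and their share of the genes at that level was not computed. MGMT was therefore 1 of 65 genes with its pattern in these 2 means. The 3 genes with a symbol nearest to it, by Euclidean distance of the 2 values of log2(TPM + 1), were TDRD9 with 0.00180 and 24.8 TPM, RAB17 with 0 and 25.9, and C4BPA with 0 and 23.998. Their distances were 0.029, 0.032 and 0.073, over 2 group means only.

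MGMT spans chr10:131265454-131569247 on the plus strand of GRCh37, the build also called hg19, in the GENCODE annotation. At 303.8 kb it is the longest locus of the 7, although its coding sequence is short. Overlapping annotated genes inside it, ENSG00000227374 and ENSG00000237224, were listed at 0 in both groups. The 200 bases before the first annotated start of MGMT are shown because CpG methylation in the island around this start is the known mark of the silenced gene. They run from chr10:131265254-131265453, plus strand of GRCh37, with each of their 29 CpG sites in capitals.
MGMT upstream: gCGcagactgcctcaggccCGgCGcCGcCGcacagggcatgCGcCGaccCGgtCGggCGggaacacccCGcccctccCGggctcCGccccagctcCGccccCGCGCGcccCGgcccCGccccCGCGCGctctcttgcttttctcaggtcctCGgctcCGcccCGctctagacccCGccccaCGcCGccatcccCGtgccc

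This stretch is 80.5% G and C. For a comparison over all genes, windows from 250 bases before to 50 bases after each RefSeq start (GRCh38.p14) were used, 35116 in all, in which each of the 7 genes was matched and which held 11 windows of these genes. The window of MGMT held 45 CpG sites against a median of 14 over all windows, and 3.48% of windows held as many or more. The windows of the other genes held 19 CpG sites for APEX1, 24 in both for PMS2, 31 for XRCC1, 34 for MPG, 37 for MSH3 and 26 to 39 in the windows of MSH6. Each of these counts also lay above the median of all windows. The hexamer GGGCGG, the core of the GC box bound by SP1-type factors, was counted on both strands. It occurred 8 times in the MGMT window, 1 to 5 times in the windows of MSH6, 4 times in that of MSH3, 3 times in that of MPG, 2 times in both of PMS2, 1 time in that of XRCC1 and not at all in that of APEX1. It was thus held by 10 of the 11 windows of these genes and by 45.0% of all windows. A match of letters is a description and does not show that a factor was bound.

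**Figure D2:**
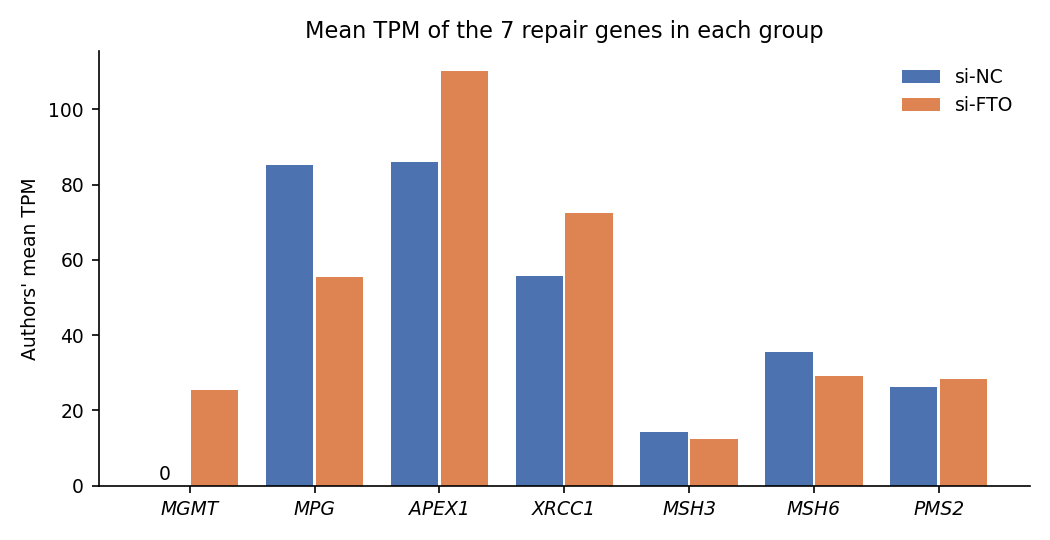
Authors' mean TPM of each of the 7 repair genes under si-NC (blue) and si-FTO (orange), 1 mean per bar and no error bars because single libraries were not given. MGMT is listed at 0 under si-NC and stands at 25.3 under si-FTO, while the other 6 genes are present in both groups.

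The direct reversal list held MGMT with ALKBH2 and ALKBH3, dioxygenases that remove methyl groups from ring nitrogens of DNA. While MGMT was higher under si-FTO, both dioxygenases were lower. ALKBH2, the most abundant of the 3 in either group, had 49.2 TPM under si-NC and 33.7 under si-FTO, a log2 ratio of -0.53 and, after scaling, of -0.33. ALKBH3 had 37.999 and 15.98 TPM. Its log2 ratio of -1.20 lay past the threshold of 1 in size, and after scaling it lay just inside, at -0.996. The summed level of the 3 genes was 87.2 TPM under si-NC and 75.0 under si-FTO.

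Against the whole table, 1 of the 7 genes, MGMT, lay past a log2 ratio of 1 in size, where 28.5% of the 20493 genes compared did so. In the higher direction the count was 1 of 7 against 11.4% of all genes, and in the lower direction 0 of 7 against 17%. After median-ratio scaling, 2786 genes were higher and 2885 lower past this threshold, in place of 2340 and 3492, and the count for the 7 genes was again 1 higher and 0 lower. With numbers this small, the share among the 7 is not a result about them. The other 6 genes had log2 ratios of at most 0.61 in size, 3 above 0 and 3 below, and 3 and 3 after scaling.

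**Figure D3:**
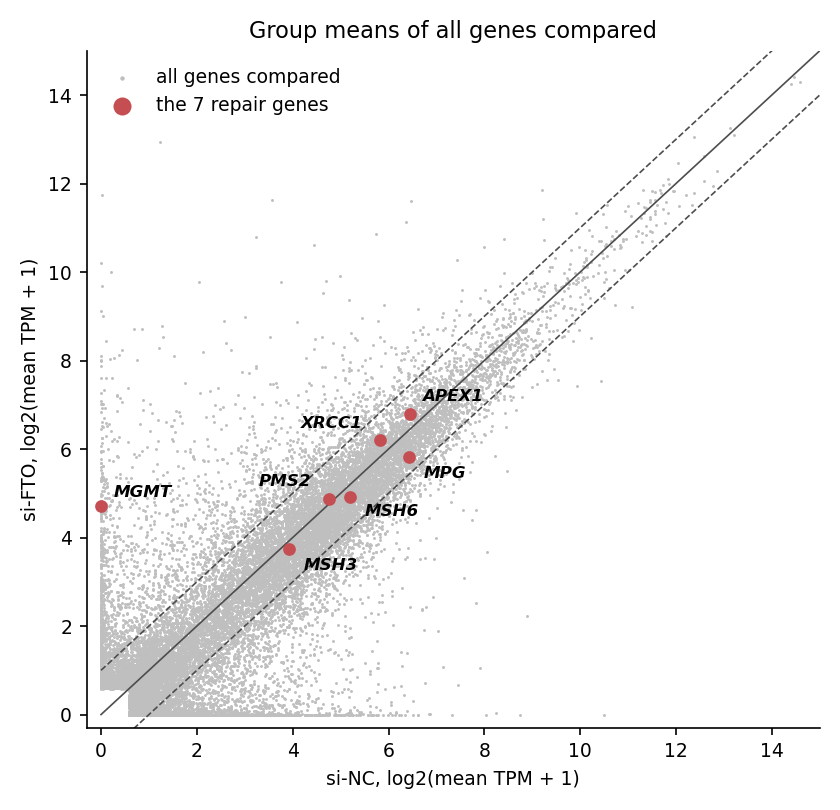
Each point is a gene compared, with log2(mean TPM + 1) under si-NC on the horizontal axis and under si-FTO on the vertical axis; the solid line marks equal means and dashed lines a log2 ratio of 1 in either direction. MGMT lies on the left edge at 0 under si-NC, and the other 6 repair genes (red) lie between the dashed lines.

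MPG (ENSG00000103152) was the lower of the early base excision genes under si-FTO. It had 85.3 TPM under si-NC and 55.4 under si-FTO, a log2 ratio of -0.61 that became -0.40 after scaling. A ratio of at least this size was not rare, since 48.0% of the genes compared had a larger one. APEX1 (ENSG00000100823) had 85.9 TPM under si-NC and 110.1 under si-FTO, with a log2 ratio of 0.35 and, scaled, of 0.56. XRCC1 (ENSG00000073050) had 55.7 and 72.5 TPM, with a log2 ratio of 0.38 and, scaled, of 0.58. The glycosylase and the proteins that act after it thus differed in opposite directions between the means, within the threshold of 1. In si-NC the level of APEX1 was 1.01 times that of MPG, and under si-FTO it was 1.99 times. XRCC1 stood at 0.653 times the level of MPG under si-NC and at 1.31 times under si-FTO. The ratio of APEX1 to XRCC1 was nearly alike in both groups, at 1.54 and 1.52. Such ratios within a group do not depend on scaling by a single factor.

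MPG was the most abundant of the 11 DNA glycosylases under si-NC, and UNG, which removes uracil, took that place under si-FTO with 59.6 TPM under si-NC and 84.9 under si-FTO. All 11 were compared, with 0 higher past the threshold and 2 lower. NEIL1 and NEIL3, glycosylases for oxidized bases, were the 2 lower ones. NEIL1 had 21.9 TPM under si-NC and 7.94 under si-FTO, with a log2 ratio of -1.36 and, scaled, of -1.16. NEIL3 had 23.4 and 9.92 TPM, with a log2 ratio of -1.16 that scaling moved inside the threshold, to -0.96. Conversely MBD4, named after its values were seen, had 22.1 and 43.9 TPM and moved past the threshold, from 0.96 to 1.17. The median log2 ratio of the glycosylases was -0.10, and 0.089 after scaling.

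Of the 14 genes that act after the glycosylase, all were compared, 0 were higher past the threshold and 1 was lower. The lower one was PARP1, which senses strand breaks and recruits XRCC1. PARP1 was the most abundant gene of the list under si-NC, with 703 TPM, and had 222.7 TPM under si-FTO, a log2 ratio of -1.65 and, scaled, of -1.44. In si-FTO the flap endonuclease FEN1 was the most abundant, with 180.2 TPM under si-NC and 257 under si-FTO. The list summed to 1454 TPM under si-NC and 1016 under si-FTO, a difference that PARP1 alone exceeded. The median log2 ratio of the list was -0.35, and -0.15 after scaling. The scaffold XRCC1 and its partner PARP1 therefore differed in opposite directions between the groups.

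The loci of MPG, APEX1 and XRCC1 are shared with other genes, which matters because the library kit keeps strand but the strand setting of the counting is not given in the sources used here. Reads from overlapping genes may then have been split between them, and the values of such pairs are uncertain. MPG, at chr16:127006-135850 on the plus strand, overlaps 1581 bases of NPRL3 on the minus strand, which had 42.3 TPM under si-NC and 56.9 under si-FTO, against the direction of MPG. XRCC1, at chr19:44047463-44084625 on the minus strand, overlaps 25782 bases of ENSG00000268361 on the same strand and 4673 bases of PINLYP on the other. Both of these genes were low, ENSG00000268361 with 0.2998 and 0.474 TPM and PINLYP with 0.291 and 0.511. XRCC1 also overlaps ENSG00000269583 and ENSG00000269177 on the plus strand, each listed at 0 in both groups. APEX1, at chr14:20923350-20925931 on the plus strand, overlaps 92 bases of PIP4P1 on the minus strand, which had 31.2 and 37.6 TPM.

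APEX1 and OSGEP, a gene for an enzyme of tRNA modification, are transcribed away from each other across a gap of 101 bases, and PMS2 and AIMP2, a scaffold subunit of the aminoacyl-tRNA synthetase complex, across a gap of 124 bases. Both gaps are shown because each member of the pair starts at its edge, so that a single short stretch adjoins 2 measured transcripts. They are read on the plus strand of GRCh37, at chr14:20923249-20923349 and chr7:6048762-6048885, with CpG sites in capitals, 11 in each.
OSGEP-APEX1: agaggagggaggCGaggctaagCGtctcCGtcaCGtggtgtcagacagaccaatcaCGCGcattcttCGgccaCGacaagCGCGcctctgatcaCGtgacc
PMS2-AIMP2: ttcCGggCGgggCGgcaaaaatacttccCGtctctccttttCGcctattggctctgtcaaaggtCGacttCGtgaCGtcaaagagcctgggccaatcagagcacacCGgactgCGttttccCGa

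The 2 pairs behaved differently. OSGEP had 65.9 TPM under si-NC and 39.4 under si-FTO, with a log2 ratio of -0.73 and, scaled, of -0.52, below 0 where that of APEX1 was above. The level of APEX1 was 1.30 times that of OSGEP under si-NC and 2.79 times under si-FTO. AIMP2 had 117.7 and 126.6 TPM, with a log2 ratio of 0.10 close to that of PMS2, and of 0.31 after scaling. Its level was 4.50 times that of PMS2 under si-NC and 4.45 times under si-FTO. The pentamer CCAAT, the core of the CCAAT box, was found on either strand 2 times in the PMS2-AIMP2 gap and 1 time in the OSGEP-APEX1 gap, and 34.6% of the 300-base RefSeq windows held it.

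Among MSH6, MSH3 and PMS2, the first 2 lay closer to the shift of all genes. MSH6 (ENSG00000116062) had 35.5 TPM under si-NC and 29.2 under si-FTO, a log2 ratio of -0.27 and, scaled, of -0.068. MSH3 (ENSG00000113318) had 14.3 and 12.27 TPM, a log2 ratio of -0.20 and, scaled, of -0.0043. Both ratios lay near the median of -0.20 of all genes compared. The level of MSH6 was 2.49 times that of MSH3 under si-NC and 2.38 times under si-FTO, so the transcripts of these alternative mismatch-binding subunits stood in nearly the same ratio.

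MSH3 lies at chr5:79950471-80172634 on the plus strand. MSH6, at chr2:47922669-48037202 on the plus strand, overlaps 20748 bases of FBXO11 on the minus strand, a gene for a ubiquitin ligase subunit. FBXO11 had 28.4 and 27.8 TPM, a log2 ratio of -0.030 that became 0.18 after scaling.

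PMS2 (ENSG00000122512), at chr7:6010556-6048761 on the minus strand, had 26.1 TPM under si-NC and 28.4 under si-FTO, a log2 ratio of 0.12 and, scaled, of 0.32. Its value is uncertain, since near-identical partial copies of PMS2 exist and the counting could split reads among them. The 10 annotated copies with a value summed to 39.3 TPM under si-NC and 40.4 under si-FTO. The largest were PMS2P1, with 10.2 and 11.9 TPM, and PMS2CL, with 9.06 and 11.03. Added to PMS2, the copies gave 65.4 and 68.8 TPM, a log2 ratio of 0.073, so that the near equality of the unscaled means held for the sum as well. The sum was not computed after scaling, where PMS2 itself had 0.32.

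The mismatch repair list also held the other subunits of the pathway and the factors for resynthesis. Of its 22 genes, 21 were compared, 2 were higher past the threshold and 0 lower, and these counts were the same after scaling. MLH3, which like PMS1 is an alternative to PMS2 in the downstream complex, had 1.17 TPM under si-NC and 7.78 under si-FTO, with a log2 ratio of 2.01 and, scaled, of 2.16. PMS2 thereby stood at 22.3 times the level of MLH3 under si-NC and at 3.65 times under si-FTO, and at 1.59 and 2.11 times that of PMS1. POLD4, the smallest subunit of DNA polymerase delta, had 12.7 and 39.6 TPM, with a log2 ratio of 1.57 and, scaled, of 1.77. The replication clamp PCNA was the most abundant gene of the list in both groups, with 295 and 449 TPM. The median log2 ratio of the list was -0.24, and -0.035 after scaling, and 14 of the 21 genes compared had a ratio below 0 before scaling.

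**Figure D4:**
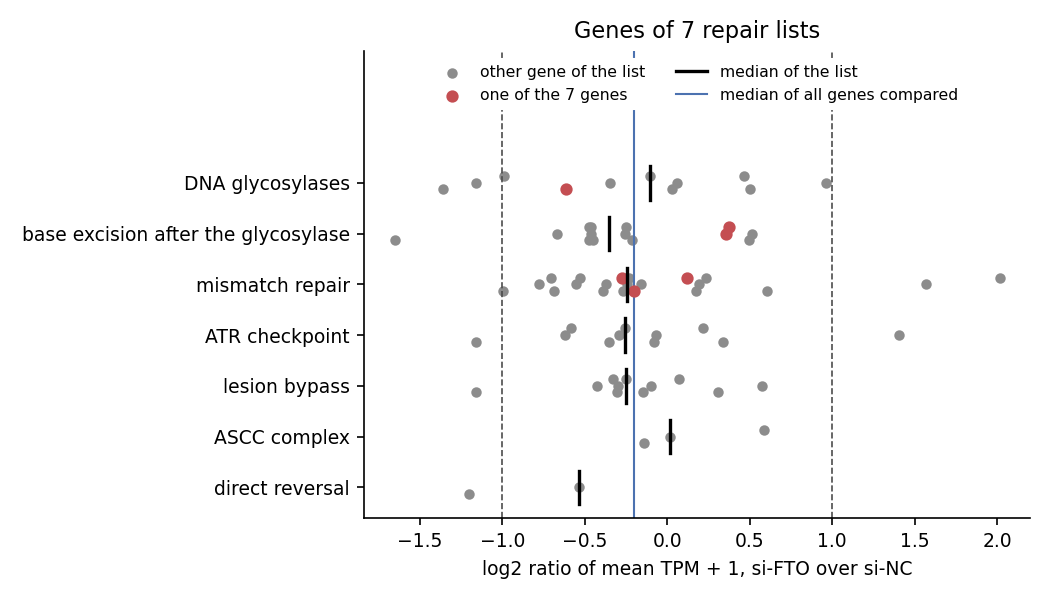
Each point is a gene compared of 7 repair lists, placed by its log2 ratio of mean TPM + 1 (si-FTO over si-NC); black bars mark the median of each list, the blue line the median of all genes compared at -0.20, and dashed lines a ratio of 1 in size. Most points lie between the dashed lines, with MLH3 at 2.01 and PARP1 at -1.65 as the ends; MGMT, listed at 0 under si-NC, is not drawn.

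Over the 7 repair lists together, which include 75 genes, 74 were compared, 4 of them (5.41%) were higher past the threshold and 6 (8.11%) lower. These shares lay below the 11.4% and 17% of all genes. The higher genes were MGMT, MLH3, POLD4 and RAD1, and the lower ones ALKBH3, NEIL1, NEIL3, PARP1, TIPIN and SHPRH. The split depended on the setting, with 5 higher and 2 lower after median-ratio scaling and 5 and 5 after quantile normalization. It also moved over all 20493 genes compared, from 2340 higher and 3492 lower to 2786 and 2885 after scaling. After quantile normalization these counts were 2803 and 2902. With a pseudocount of 0.1, or with 0.0001 kept and no pseudocount, 4 of the list genes were higher and 9 lower. The counts over all genes were not taken for these settings. The median log2 ratio of the 74 genes was -0.25, and -0.041 after median-ratio scaling. MGMT was the only gene of the 75 listed at 0 in either group.

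The order of levels among the 7 genes was much alike in both groups. In si-NC it ran from APEX1 through MPG, XRCC1, MSH6, PMS2 and MSH3 to MGMT, and under si-FTO from APEX1 through XRCC1, MPG, MSH6, PMS2 and MGMT to MSH3. Of the 21 pairs, 19 had the same order in both groups, and the exceptions were MPG with XRCC1 and MGMT with MSH3. APEX1 and MPG under si-NC, with 85.9 and 85.3 TPM, and MSH6 and PMS2 under si-FTO, with 29.2 and 28.4, were close. Whether such neighbors differ beyond the spread of the libraries cannot be told from means. Relative to all genes compared, APEX1 lay above 90.9% under si-NC and 92.9% under si-FTO, and MSH3 above 59.4% and 58.3%.

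Finally the genes around each of the 7 were examined, in the order of the annotation and with at least 1 TPM in at least 1 group. Over all 17570 such genes the median log2 ratio was -0.21, with 12.95% higher and 19.5% lower past the threshold. Around MGMT, the median of the nearest 10 genes on each side was -0.28, with 2 higher and 2 lower past the threshold, and 4 and 11 with 25 genes on each side. The genes that adjoin it differed from it and from each other, with MKI67, a marker of cycling cells, at 41.8 TPM under si-NC and 63.1 under si-FTO, and the transcription factor EBF3 at 16.5 TPM under si-NC and listed at 0 under si-FTO. Thus MGMT and EBF3, next to each other in this order, were each listed at 0 in a different group. Around MPG, which lies near the end of its chromosome with 6 genes on one side, the median was -0.68, close to the ratio of -0.61 of MPG itself, and 1 gene was higher and 5 were lower past the threshold. With 25 genes on the other side these counts were 2 and 8, and the median was again -0.68. The adjoining RHBDF1 had 11.04 and 6.53 TPM. Around XRCC1 the median was -0.025, with 6 genes higher past the threshold and 2 lower. With 25 genes on each side the median was -0.18 and the counts were 7 and 6, so the imbalance was not seen in the wider stretch. The adjoining IRGQ had 22.8 and 11.7 TPM. The medians around APEX1, MSH3, MSH6 and PMS2 were -0.22, -0.61, -0.072 and -0.20, and with up to 25 genes on each side -0.42, -0.45, -0.10 and -0.23. In that wider stretch around APEX1, 3 genes were higher and 12 lower past the threshold, in place of 1 and 3. Next to MSH3, RASGRF2 had 6.42 and 0.152 TPM. After median-ratio scaling, the medians around MGMT, MPG, APEX1 and MSH3 were still below 0, at -0.072, -0.48, -0.013 and -0.52, whereas those around XRCC1, MSH6 and PMS2 were above 0, at 0.15, 0.087 and 0.013. With 25 genes on each side, the scaled median around PMS2 was below 0, at -0.026, and that around XRCC1 was 0.0020, so the sign around PMS2 depended on the stretch taken.

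**Figure D5:**
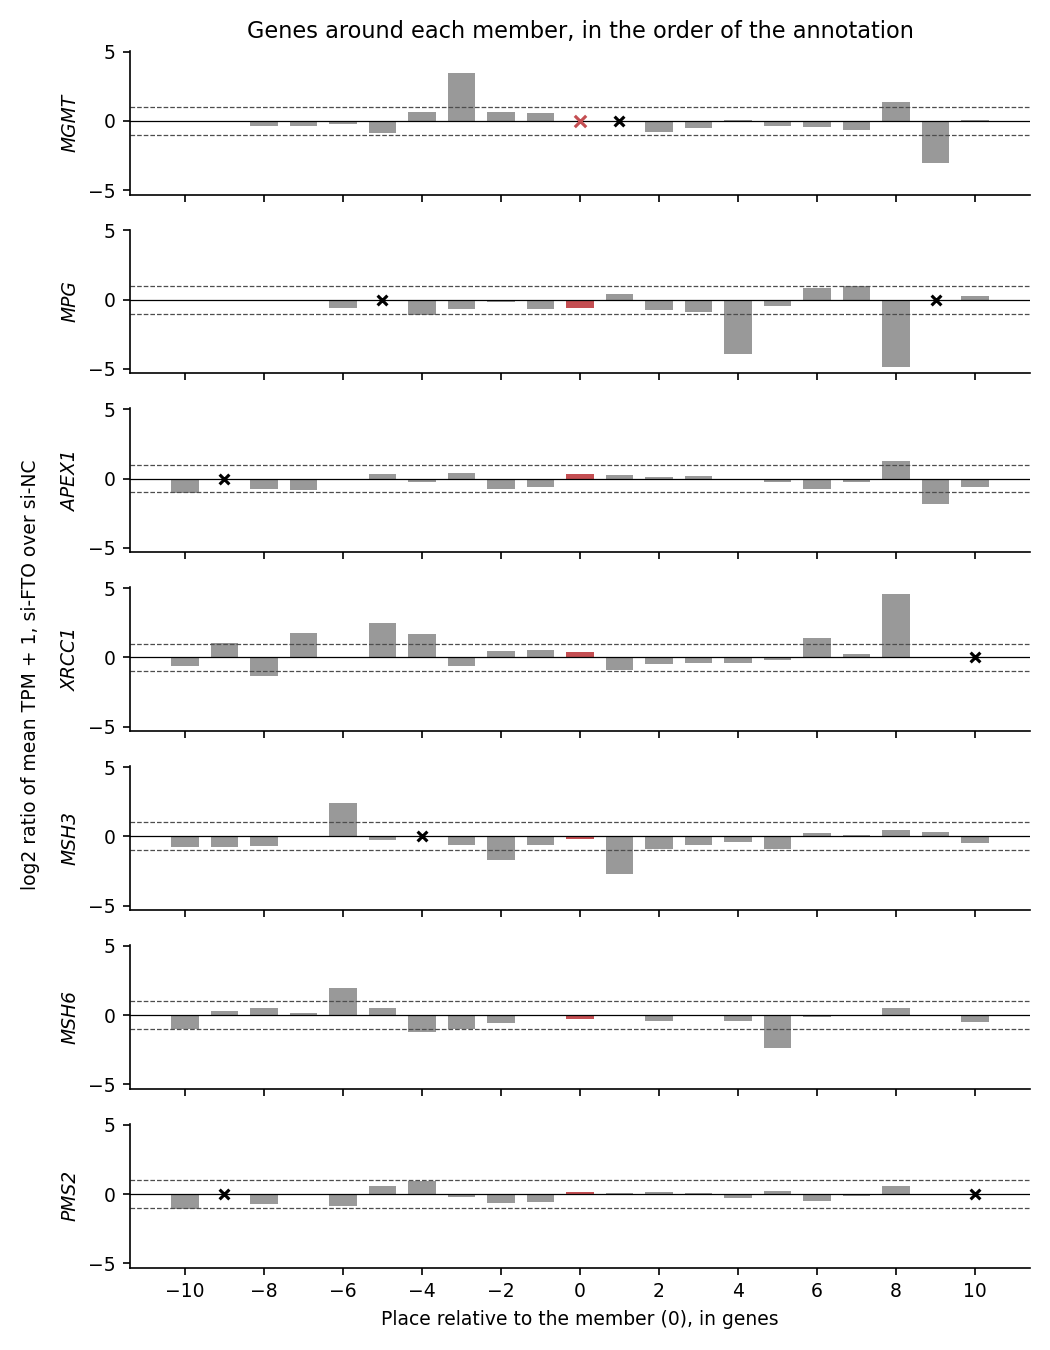
For each of the 7 genes (red, place 0), grey bars give the log2 ratio of mean TPM + 1 (si-FTO over si-NC) of up to 10 genes on each side in the order of the annotation, dashed lines mark 1 in size, and crosses mark genes listed at 0 in a group. Most neighbors lie between the dashed lines, and both MGMT and the gene after it carry a cross.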

How the data were processed

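Total RNA of cells labelled AGS was sequenced from stranded KAPA libraries. According to the methods, reads were mapped to hg19 with Bowtie and quantified with RSEM, whereas the submitters' processing notes name HISAT2. The authors deposited TPM as 1 mean for each of the 2 groups, with 0.0001 in place of 0. The 3 columns beside them hold the authors' own log2 ratio, p-value and q-value and were not used. TPM keeps no depth, so depth and precision are unknown.

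Values of 0.0001 were read as 0. The log2 ratio was taken after adding a pseudocount of 1, for genes that reached 0.5 TPM in either mean. Limma over single libraries had been intended if these were given, and was not possible with means. Symbols matched 55726 of 58174 identifiers. Gene positions and genomic sequences are from GENCODE on GRCh37, and 300-base start windows from RefSeq on GRCh38.p14. The alternatives were other pseudocounts, filters, thresholds, scalings and numbers of neighboring genes.

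The 7 genes and the gene lists were chosen with earlier results of these data known. Of each list, the text names the most abundant gene and at most 4 genes past the threshold in each direction. It also names genes that adjoin or overlap the 7, the 3 genes nearest to MGMT in level, and defining markers. Some genes covered by these rules, and some mismatch repair genes, are not reported here. Python 3.11.15, numpy 2.4.6, pandas 2.3.3 and matplotlib 3.10.9 were used, and the threshold and scaling steps were tested on simulated data.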

Additional observations from a re-analysis of the deposited data

How the results depend on the processing

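No paired analysis was possible because the table holds 1 mean per group, although the titles number the libraries 1 to 3. For the same reason no library could be left out, and neither depth nor the spread between libraries limits these values in a way that can be stated. Across pseudocounts of 1 and 0.1, median-ratio scaling, quantile normalization and 0.0001 kept without a pseudocount, the level of MGMT under si-FTO ranged from 25.3 to 27.2 TPM. The log2 ratios over these settings ranged from -0.62 to -0.40 for MPG, 0.32 to 0.56 for APEX1, 0.38 to 0.58 for XRCC1, -0.22 to -0.0043 for MSH3, -0.28 to -0.068 for MSH6 and 0.12 to 0.32 for PMS2, with no change of sign. Quantile normalization keeps the order of levels within a group by construction. The same order in 19 of the 21 pairs after it is therefore no check of that order. MGMT alone of the 7 lay past the threshold under each setting but a threshold of 0.58, at which the count was 2, with MPG as the other gene. That lower threshold also gave 7 higher and 15 lower genes of the repair lists, as its construction implies. The share of all genes past 0.58 was not computed, but 48.0% of the genes compared had a larger ratio in size than MPG. The counts at 0.58 are therefore not a result about these genes. Median-ratio scaling left 2 lower genes of the lists in place of 6, since it adds to every ratio. Over all genes compared it left 2885 lower in place of 3492. The medians of the 7 lists moved by less than 0.58 under each setting in which they were computed, as did those of the neighboring genes with 25 in place of 10 on each side.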

Other observations

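Other lists of genes that respond to alkylated or stalled DNA had few genes past the threshold, within which 71.5% of all genes compared lay as well. The ATR checkpoint is the kinase pathway that senses single-stranded DNA at stalled forks. All 11 genes of its list were compared, with 1 higher and 1 lower past the threshold and a median log2 ratio of -0.26, or -0.058 after median-ratio scaling. RAD1, a subunit of the checkpoint clamp, had 16.6 TPM under si-NC and 45.6 under si-FTO, with a log2 ratio of 1.41 and, scaled, of 1.61. TIPIN, a fork protection factor and the most abundant of the list under si-NC, had 84.0 and 37.005 TPM, with a log2 ratio of -1.16 and, scaled, of -0.95. In si-FTO the most abundant was TOPBP1, an activator of ATR, with 70.0 TPM under si-NC and 88.6 under si-FTO.

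Lesion bypass, in which specialized polymerases copy damaged templates, gave a similar picture. Of its 11 genes, 0 were higher and 1 was lower past the threshold, and the median log2 ratio was -0.25, or -0.041 after scaling. The lower gene was SHPRH, a ubiquitin ligase for PCNA, with 16.3 TPM under si-NC and 6.72 under si-FTO, a log2 ratio of -1.16 and, scaled, of -0.97. MAD2L2, a subunit of polymerase zeta, was the most abundant in both groups, with 162.9 and 120.9 TPM. The ASCC complex, which works with ALKBH3 at alkylated DNA, had 0 of 3 genes past the threshold. ASCC2, its most abundant gene, had 67.9 TPM under si-NC and 61.5 under si-FTO, and the median log2 ratio of the 3 was 0.017, or 0.22 after scaling. ALKBH3 and the ASCC genes therefore did not move together past the threshold, since ALKBH3 alone of these 4 was beyond it before scaling and 0 were after it.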
